A study of Mus musculus with 16 samples.

Results

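The small leucine-rich proteoglycans are secreted matrix proteins, and 8 of their genes (Dcn, Ogn, Lum, Bgn, Aspn, Omd, Prelp and Fmod) are described here in tail epidermis in which Hedgehog signalling had been switched on. These genes were chosen by measured values, because Dcn had risen and Ogn had fallen in epidermis with active Hedgehog signalling compared with untreated epidermis, and the rest of the family was added around them. Of 18194 genes on the array these are 8, read by 19 of its 45101 probe sets, and every probe set annotated to one of the 8 symbols alone was used. Levels are log2 array signals from the deposited table, so a difference of 1 is a doubling, and levels are compared between samples and never between genes.

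A small leucine-rich proteoglycan consists of a curved core protein built of leucine-rich repeats, to which sugar chains are attached after synthesis. Decorin (Dcn) and biglycan (Bgn) carry chondroitin or dermatan sulfate chains, fibromodulin (Fmod) and lumican (Lum) carry keratan sulfate chains in some tissues, and asporin (Aspn) is known for carrying none. Most of these proteins bind collagen and set how its fibrils grow, and several also bind growth factors such as TGF-beta. In skin they are known mainly as products of dermal fibroblasts, and decorin is the main one of the dermis.

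The study used mice in which tamoxifen turns on SmoM2, a constantly active form of the Hedgehog transducer Smoothened fused to YFP, and sorted tail epidermal cells, SmoM2-positive ones where tamoxifen had been given, were profiled on 16 Affymetrix arrays in 8 groups. All mice carried the Rosa-SmoM2-YFP allele, on a mixed strain background, and their age was not analysed here. The interfollicular epidermis (IFE), the skin surface layer between hairs, was targeted with K14CREER, a Cre driven by the keratin 14 promoter of basal epidermal cells. Its groups were SmoM2 with homozygous floxed β-catenin (b-cat flox/flox) at 4 wk after tamoxifen (n = 2, here "β-catenin loss"), the untreated control with the same Cre and SmoM2 alleles but no tamoxifen (n = 3), and SmoM2 after 3 d (n = 1), 1 wk (n = 3), 4 wk (n = 3) and 10 wk (n = 2). The bulge, the stem cell region of the hair follicle, was targeted together with the outer root sheath by K19CREERT2, driven by the keratin 19 promoter, with SmoM2 at 4 wk (n = 1) and an untreated control (n = 1). β-catenin was deleted only together with SmoM2 activation, so its loss can be read only on top of SmoM2. The untreated controls also lacked tamoxifen, so effects of SmoM2, of the drug and of time after it cannot be told apart. The labels do not say whether arrays of a group came from separate mice, so p-values measure only the spread between these arrays.

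Several of these genes lie side by side, in the order of the mouse RefSeq annotation (GRCm38.p6). On chromosome 10 Dcn is followed by Lum, Kera and Epyc. On chromosome 13 Ecm2, Aspn, Omd and Ogn follow each other, and on chromosome 1 Optc, Prelp and Fmod do, while Bgn lies alone on the X chromosome. Across the 14 IFE arrays the neighbours Dcn and Lum had a correlation of 0.58, Prelp and Fmod one of -0.37, and Aspn and Ogn, with only Omd between them, one of -0.22; pairs with Omd were not computed.

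RefSeq promoter windows, 250 bases before to 50 bases after the annotated start on GRCm38.p6, were matched by symbol for 6 of the 8 genes, all but Dcn and Lum. They were searched on both strands for the Gli motif GACCACCCA, bound by the transcription factors of the Hedgehog pathway, for the Tcf/Lef motif CTTTGAA, bound by the partners of β-catenin, and for TATAAA, the TATA box. The 3 windows that held any match are shown here with matches in capitals, because Bgn, Aspn and Ogn also had the widest ranges between groups besides Dcn. The Ogn window is chr13:49607765-49608064 (+), the Bgn window chrX:73483351-73483650 (+) and the Aspn window chr13:49544193-49544492 (+).
Ogn: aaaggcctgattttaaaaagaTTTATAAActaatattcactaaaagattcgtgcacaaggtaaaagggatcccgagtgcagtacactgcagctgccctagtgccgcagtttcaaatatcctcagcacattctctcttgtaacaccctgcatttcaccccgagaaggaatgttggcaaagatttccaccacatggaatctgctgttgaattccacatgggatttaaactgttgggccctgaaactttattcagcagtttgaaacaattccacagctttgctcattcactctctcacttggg
Bgn: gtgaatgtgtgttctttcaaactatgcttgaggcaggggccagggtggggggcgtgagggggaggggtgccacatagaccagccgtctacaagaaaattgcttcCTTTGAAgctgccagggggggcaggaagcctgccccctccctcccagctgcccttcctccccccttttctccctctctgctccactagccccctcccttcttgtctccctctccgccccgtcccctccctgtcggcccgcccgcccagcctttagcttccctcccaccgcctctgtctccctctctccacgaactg
Aspn: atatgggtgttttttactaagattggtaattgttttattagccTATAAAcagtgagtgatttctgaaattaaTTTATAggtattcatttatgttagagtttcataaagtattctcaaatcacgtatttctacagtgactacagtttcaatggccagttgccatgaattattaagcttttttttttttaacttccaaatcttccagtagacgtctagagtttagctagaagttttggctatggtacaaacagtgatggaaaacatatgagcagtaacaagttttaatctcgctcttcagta
The Bgn window held the Tcf/Lef letters once, at -146 from the start, which 5.14% of the 32851 windows of the table do. Ogn held 2 overlapping TATAAA matches, at -227 on the gene's strand and at -229 on the opposite one, and Aspn held 2, at -207 on the gene's strand and at -178 on the opposite one, where 13.6% of windows hold at least 1. None of the 6 windows held the Gli letters, which 0.253% of windows do. G and C made up 63.7% of the Bgn window, against 42.3% of the Ogn window and 31.0% of the Aspn window. These matches describe the letters of the windows and say nothing about binding.

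The Hedgehog target Gli1 checked the labels. Its signal was 5.30 to 5.73 in the IFE controls, 7.28 in the 3 d array and 8.50 to 10.83 in the later SmoM2 arrays, while the loss arrays stood at 7.22 and 9.56. Ctnnb1, the gene of β-catenin, had 12.76 and 12.93 in the loss arrays, against 13.21 to 13.65 in the SmoM2 arrays of 4 wk. The IFE controls, which had no tamoxifen, read 13.04, 12.76 and 12.77, so this signal did not set the loss arrays apart from them. Whether its probe set lies in the deleted exons was not checked. Keratin 14 read 12.83 or more on every array, and all 7 basal keratinocyte markers stood above the level used to call a gene dim. Array medians lay between 5.38 and 5.53, and the 40th percentile of an array, the level below which a signal is called dim here, between 4.88 and 5.01. The bulge control, although labelled untreated, had a Gli1 signal of 9.89 and is named as SmoM2-positive in 1 of its labels, so it is treated here only as the array labelled bulge control. Y-linked genes, read as the mean signal of 3 genes, differed within some groups: they were 3.39 and 6.91 in loss replicates 1 and 2 and 3.41, 8.18 and 3.43 in the IFE controls, but 6.02 to 8.41 in all 3 SmoM2 arrays of 4 wk and 8.10 and 8.15 at 10 wk.

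The 8 genes fell into 3 kinds by signal. Dcn and Bgn stood above the dim level on all 16 arrays, with ranges of 7.78 to 12.98 and 6.73 to 12.22. Aspn stood above it on 10 arrays and Ogn on 5, so each changed between clearly measured and dim from array to array. Lum (above it on 2 arrays), Omd (on none), Prelp and Fmod (15 each) stayed near it throughout, with no signal over 6.77 on the probe sets read for them. A gene was tested if it stood above the dim level on at least 2 arrays, which 7 of the 8 genes did and Omd did not. Omd, osteomodulin, best known from bone, read 3.59 to 4.27 on all arrays and was not detectable above background. In these bulk samples fewer cells of a type and less RNA per cell cannot be told apart.

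**Figure D1:**
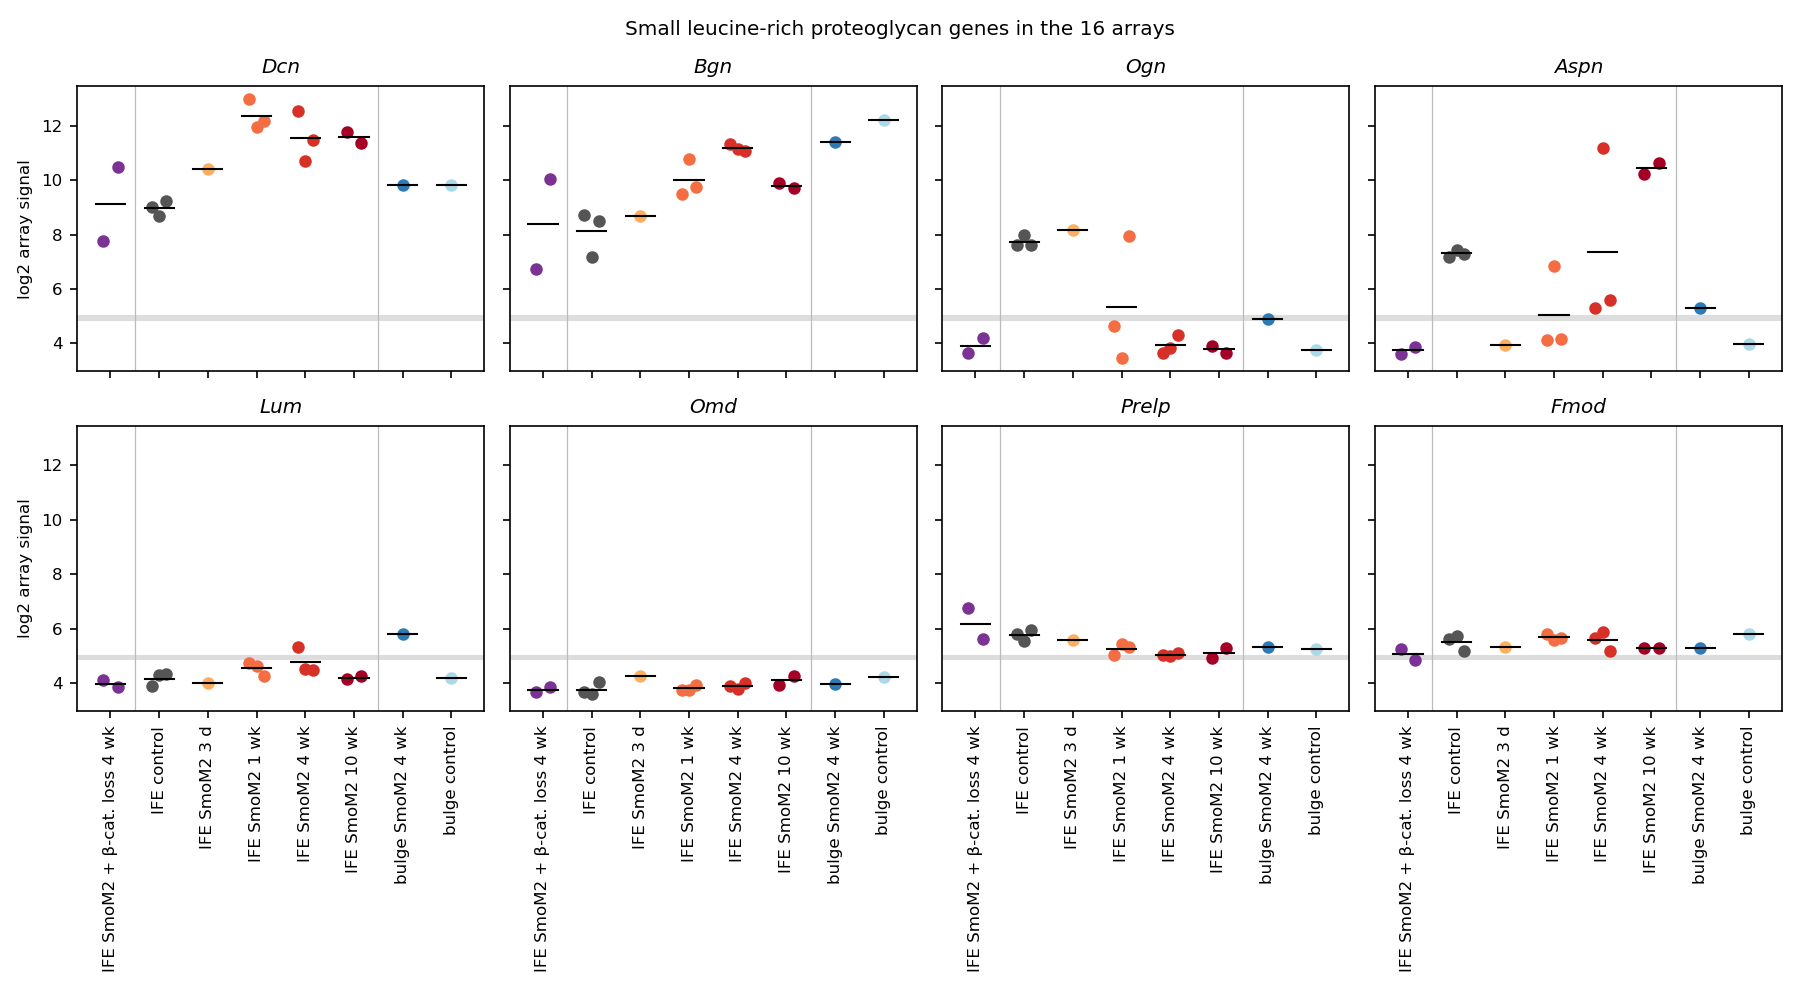
Log2 array signal (vertical axis) of each of the 8 genes on every array (points), with the group mean (bar), for the IFE β-catenin loss group, the IFE control and SmoM2 time series, and the bulge arrays. The grey band spans the arrays' 40th percentiles, 4.88 to 5.01: Dcn and Bgn lie above it everywhere, Ogn and Aspn cross it, and Lum and Omd lie mostly or wholly below it.

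Decorin binds collagen I fibrils and TGF-beta and restrains several growth factor receptors. Its signal was 9.00, 8.67 and 9.22 in the IFE controls, 10.41 in the 3 d array, 12.98, 11.95 and 12.17 at 1 wk, 12.53, 10.69 and 11.46 at 4 wk, and 11.76 and 11.37 at 10 wk. Every SmoM2 array of the IFE was above every control array, and the highest group was 1 wk, not the latest one. Mean differences from the control were 1.44 at 3 d, 3.40 at 1 wk, 2.59 at 4 wk and 2.60 at 10 wk; these are the values that led to the choice of Dcn and carry no test. In order of mean, 1 wk came first and did not overlap 10 wk, 10 wk and 4 wk overlapped, and the 3 d array, the 2 bulge arrays (9.83 with SmoM2, 9.81 in the control), the loss group and the control followed, with the loss group's arrays on both sides of the control's. The second Dcn probe set was much dimmer, 4.20 to 6.21, and followed the first with a correlation of 0.64 over the 16 arrays.

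Biglycan, decorin's closest relative, also acts as a signal to innate immune receptors when it is released from matrix. Bgn read 8.73, 7.16 and 8.51 in the IFE controls, 8.68 at 3 d, 9.48, 10.76 and 9.75 at 1 wk, 11.32, 11.13 and 11.07 at 4 wk, and 9.89 and 9.71 at 10 wk. The 3 d value lay within the control range, all later SmoM2 values lay above it, and the 4 wk arrays were the highest and closest together of the IFE (mean 11.17 ± 0.13, SD, n = 3). Differences from the control were 0.55, 1.86, 3.04 and 1.67 from 3 d to 10 wk. In the bulge, Bgn was high on both arrays. It read 11.41 with SmoM2, near the 11.07 to 11.32 of the IFE at 4 wk. The bulge control had 12.22, the highest value on any array. The other 2 Bgn probe sets followed the one read with correlations of 0.974 and 0.991.

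Asporin binds collagen and TGF-beta and is known from cartilage, ligament and the stroma of tumours. Its levels were the most uneven of the 8 genes. Aspn read 7.19, 7.42 and 7.30 in the IFE controls, 3.93 at 3 d, 4.11, 6.85 and 4.16 at 1 wk, 5.30, 11.16 and 5.58 at 4 wk, and 10.23 and 10.63 at 10 wk. It was thus dim at 3 d and on 2 of the 3 arrays of 1 wk, above the control on 1 of the 3 arrays of 4 wk and above it on both arrays of 10 wk. The mean at 4 wk, 7.34 ± 3.31 (SD, n = 3), stands for no array of the group. Mean differences from the control were -3.38 at 3 d, -2.26 at 1 wk, 0.04 at 4 wk and 3.13 at 10 wk. The second Aspn probe set followed the first on these arrays (correlation 0.97), with 9.16 on the same 4 wk array and 9.90 and 10.19 at 10 wk.

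Osteoglycin (Ogn), a smaller family member also called mimecan, went the other way. Ogn read 7.61, 7.96 and 7.61 in the IFE controls, 8.15 at 3 d, 4.63, 3.45 and 7.93 at 1 wk, 3.66, 3.84 and 4.30 at 4 wk, and 3.92 and 3.66 at 10 wk. The 3 d array lay above all control arrays, 1 array of 1 wk lay within their range, and all arrays of 4 wk and 10 wk were dim. Differences from the control were 0.42 at 3 d, -2.39 at 1 wk, -3.80 at 4 wk and -3.94 at 10 wk, and the last 2 end at background, which limits their size. These are also values that led to the choice of the genes. The second Ogn probe set had a correlation of 0.95 with the first. It read 7.53 at 3 d, against 5.58 to 6.55 in the controls, and was also high on the same 1 wk array (6.63). That array, replicate 3, had the lowest Gli1 signal of its group, 8.50, against 9.77 and 10.16 on the other arrays of 1 wk; the part of this in the Ogn value was not tested.

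Prelp, a heparin-binding member that anchors basement membranes to connective tissue, was near background with small differences. It read 5.81, 5.54 and 5.94 in the IFE controls, 5.57 at 3 d, 5.04 to 5.43 at 1 wk, 5.02, 4.99 and 5.12 at 4 wk, and 4.94 and 5.28 at 10 wk. All 8 arrays with SmoM2 alone from 1 wk on were below the lowest control array. The second Prelp probe set overlapped between control (5.40 to 7.02) and 4 wk (4.60 to 5.49) and followed the first with a correlation of 0.71.

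Fibromodulin, which binds collagen next to lumican, read 4.86 to 5.89 over all arrays, and its 5 other probe sets followed the one read with correlations of only 0.13 to 0.53, so no pattern over the groups is described for it. Lumican, which orders collagen fibrils in the cornea and dermis, was dim on all arrays but 2, at 5.33 on 1 array of 4 wk and 5.80 in the SmoM2 bulge. It passed the filter through those arrays alone.

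**Figure D2:**
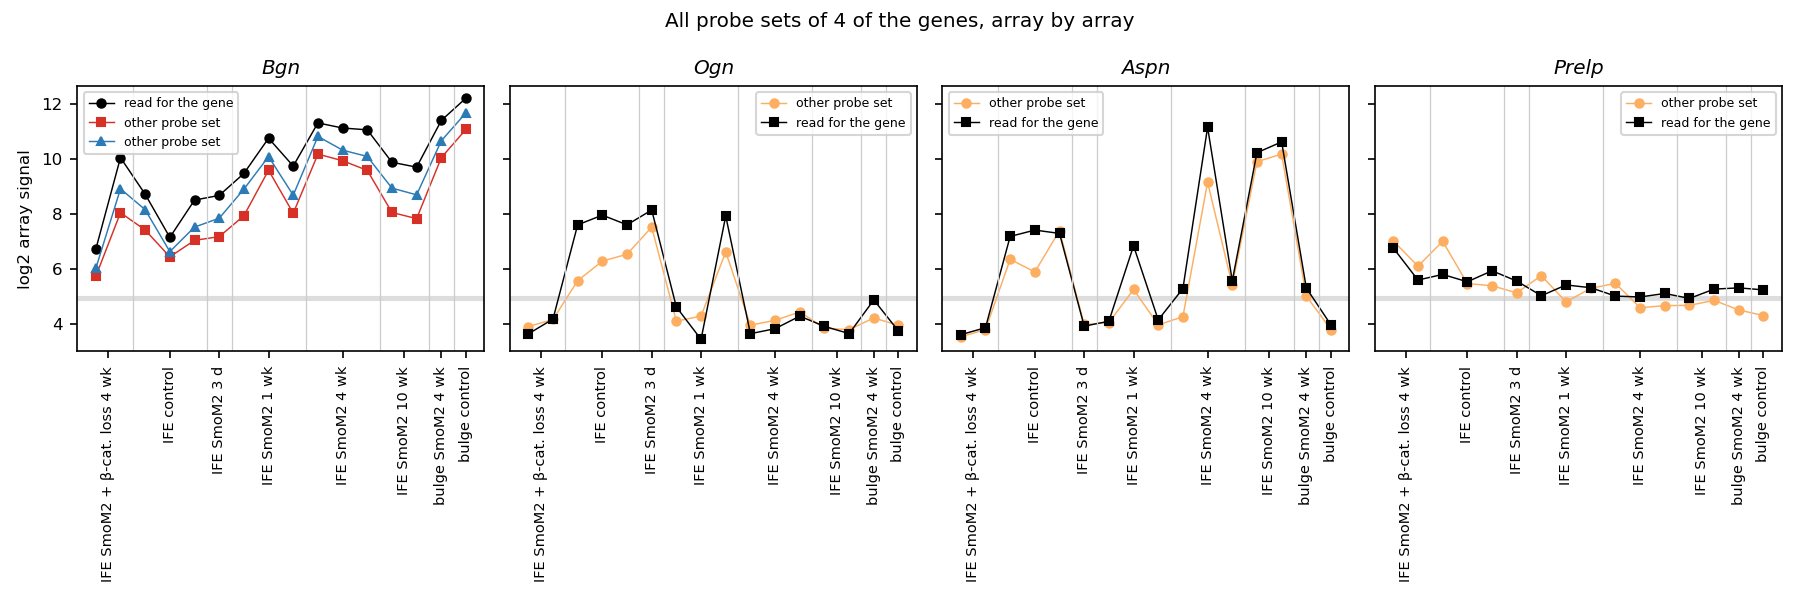
Log2 array signal (vertical axis) of every probe set of Bgn, Ogn, Aspn and Prelp on each array, joined array by array within the groups named on the horizontal axis, with the probe set read for the gene in black and the grey band at the arrays' 40th percentiles. For Bgn, Ogn and Aspn the other probe sets rise and fall with the one read (correlations of at least 0.95), and the 2 Prelp probe sets follow each other less closely (0.71).

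Because the SmoM2 against control contrasts chose the genes, the counts there are no test of them, are given only beside the share of all genes, and nothing is read from them. At 4 wk 3 of the 7 genes tested (Dcn and Bgn higher, Ogn lower) had an adjusted p under 0.05 in limma, where 3.24% of all 14286 genes did, and 5 of 7 an unadjusted p under 0.05, where 15.1% of all genes did. The count of 3 did not hold: it was 2 with the replicate number as a block, 0 or 1 with any single control or 4 wk array left out, and 0 with no filter on dim genes. None of the 7 passed at 3 d (background 0%), 1 wk (0%) or 10 wk (0.7%). At an unadjusted p under 0.05 the counts were 0 of 7 at 3 d, 3 of 7 at 1 wk and 4 of 7 at 10 wk, against 1.55%, 4.74% and 10.6% of all genes.

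The comparison of β-catenin loss with SmoM2 alone at 4 wk asks which SmoM2 levels depend on β-catenin, and it was not the contrast that chose the genes, although it shares the 4 wk arrays with it. Dcn, Bgn, Aspn and Lum were lower in both loss arrays than in every SmoM2 array, Prelp was higher in both, and Ogn was dim in both groups. None of the 7 genes tested passed an adjusted p of 0.05 in limma, where 2.23% of all genes (92 higher, 226 lower) did; with the replicate number as a block 1347 of all genes passed, against 318 without it. At an unadjusted p under 0.05, 5 of 7 passed, where 17.2% of all genes did, and 5 of 7 had groups that did not overlap, where 28.6% of all genes did. Lum is in both counts although it passed the filter only through 1 SmoM2 array of 4 wk and the SmoM2 bulge array, so these counts are a description and support nothing.

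Dcn had 7.78 and 10.49 in the loss arrays, against 12.53, 10.69 and 11.46 in the SmoM2 arrays, a difference of -2.42 ± 0.69 (SE, adjusted p = 0.0884, limma). Bgn had 6.73 and 10.05 in the loss arrays, against 11.32, 11.13 and 11.07 in the SmoM2 arrays (-2.78 ± 0.77, adjusted p = 0.0833). For both genes loss replicate 1 was far below all SmoM2 arrays, and loss replicate 2 lay closer to the lowest of them. The 2 loss arrays differed by 2.71 in Dcn and by 3.33 in Bgn, and in the same direction in Gli1, at 7.22 and 9.56, against 9.95 to 10.83 in the SmoM2 arrays; the part of the Hedgehog target level in these differences was not tested. Loss replicate 1 was also the only array of this comparison with low Y-linked signal, and with that signal as a covariate the differences were -2.05 in Dcn (adjusted p = 0.193) and -2.90 in Bgn (0.131). Without loss replicate 2, which leaves 1 loss array whose spread is taken from the other groups, the differences were -3.78 in Dcn (adjusted p = 0.0173) and -4.45 in Bgn (0.0115), and without loss replicate 1 they were -1.07 (0.6) and -1.12 (0.573).

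Prelp moved opposite to these, with 6.77 and 5.61 in the loss arrays, against 5.02, 4.99 and 5.12 in the SmoM2 arrays (1.14 ± 0.30, adjusted p = 0.0683). With the replicate number as a block the difference was 1.20 and passed, at an adjusted p of 0.0423. The loss arrays did not deviate with the same-numbered SmoM2 arrays (correlations of -0.05 and -0.18), so the numbers do not pair these groups. The second Prelp probe set had 7.03 and 6.11 in the loss arrays, against 5.49, 4.60 and 4.68 in the SmoM2 arrays, so both probe sets were higher in both loss arrays. Without loss replicate 2 the difference was 1.73 (0.0149), without loss replicate 1 it was 0.56 (0.515), and with the Y-linked signal as a covariate it was 0.91 (0.138).

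Aspn was dim in the loss arrays, 3.62 and 3.87, against 5.30, 11.16 and 5.58 in the SmoM2 arrays (-3.60 ± 1.40, adjusted p = 0.209), and the spread of the SmoM2 group, with 1 array far above the others, sets the size of this difference. Its second probe set also did not overlap between the groups. Ogn had 3.65 and 4.19 in the loss arrays, against 3.66, 3.84 and 4.30 in the SmoM2 arrays (-0.01 ± 0.91), so its low level with SmoM2 was also seen with β-catenin deleted. Lum differed by -0.79 ± 0.28 (adjusted p = 0.164) and Fmod by -0.53 ± 0.25 (0.314), both close to background.

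**Figure D3:**
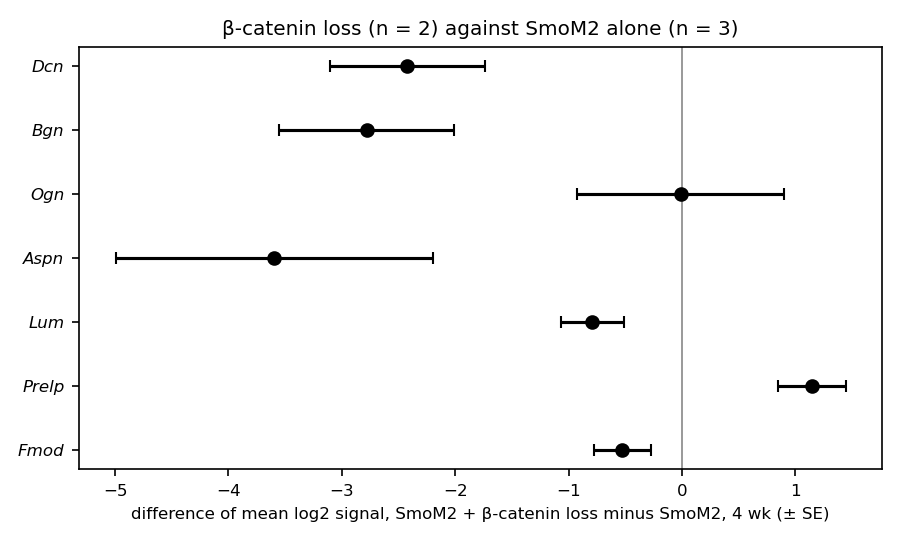
Difference of mean log2 signal, β-catenin loss minus SmoM2 alone at 4 wk (horizontal axis), for the 7 genes tested, with bars of 1 standard error from the limma fit. Bgn (-2.78), Dcn (-2.42) and Aspn (-3.60) lie on the negative side, Ogn at -0.01 and Prelp at 1.14; none had an adjusted p under 0.05.

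Set against the IFE control, the loss group had Dcn (difference 0.17, adjusted p = 0.923) and Bgn (0.26, 0.893) at values that spanned the control arrays. Ogn did not return to the control level: it had 3.65 and 4.19 in the loss arrays, against 7.61, 7.96 and 7.61 in the control arrays (-3.81 ± 0.91, adjusted p = 0.1). Aspn had 3.62 and 3.87 in the loss arrays, against 7.19, 7.42 and 7.30 in the control arrays (-3.56 ± 1.40, adjusted p = 0.267). For both genes the groups stood far apart with little spread in either, and the standard error comes from the IFE groups together, among them the uneven ones at 1 wk and 4 wk. Fitted on the groups compared alone, both passed, each at an adjusted p of 0.00135. In the fit of all IFE groups none of the 7 genes passed, where 0.371% of all genes did, and 2 of 7 had an unadjusted p under 0.05, where 14.6% did. This comparison shares its control arrays with the contrast that chose the genes.

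Some lists of markers of other cells were lower in the loss arrays than in the SmoM2 arrays of 4 wk, and others overlapped. A list of dermal fibroblast markers without the 8 genes, 11 of them on the array, had a summed linear signal of 403 to 540.4 in the loss arrays, 720.5 to 1178 in the SmoM2 arrays of 4 wk and 678 to 858 in the controls. It had a mean log2 signal of 4.86 to 4.96 in the loss arrays, 5.42 to 5.73 in those SmoM2 arrays and 5.19 to 5.59 in the controls, and 4 of the 11 were above the dim level in the loss arrays against 5 or 6 in the SmoM2 arrays. The list was uneven: on the IFE arrays Col1a1, a main dermal collagen chain, read 3.78 to 4.81 and Dpt, dermatopontin, 3.65 to 4.35, both dim on every one, while Fbln1, fibulin, read 6.59 to 9.15 and was above the dim level on every one. Fbln1 had 7.04 and 7.76 in the loss arrays, against 8.55, 8.28 and 8.58 in the SmoM2 arrays. Pdgfrb overlapped, with 5.65 and 5.39 in the loss arrays, against 5.44, 5.08 and 5.09 in the SmoM2 arrays. Col1a2 had 5.23 and 5.34 in the loss arrays, against 8.38, 6.54 and 7.12 in the SmoM2 arrays, and Thy1, also found on other cells, had 5.05 and 6.78 in the loss arrays, against 7.71, 4.67 and 7.34 in the SmoM2 arrays. A list of 6 dermal papilla markers had a mean of 4.32 to 4.97 in the loss arrays, 5.26 to 5.46 in the SmoM2 arrays and 4.20 to 4.87 in the controls, with 2 above the dim level in the loss arrays and 2 or 3 in the SmoM2 arrays. Of these only Vcan and Alpl stood above the dim level on all arrays of this comparison, and both overlapped. Vcan, the chondroitin sulfate proteoglycan versican, had 5.30 and 9.31 in the loss arrays, against 11.55, 9.07 and 10.22 in the SmoM2 arrays. It read 11.10 in the SmoM2 bulge and 11.36 in the bulge control. Alpl had 5.61 and 5.44 in the loss arrays, against 5.60, 5.79 and 5.23 in the SmoM2 arrays. Markers of bulge and outer root sheath had a mean of 8.14 to 8.71 in the loss arrays, 9.14 to 10.11 in the SmoM2 arrays and 7.29 to 7.69 in the controls, and melanocyte markers one of 5.59 to 5.72 in the loss arrays, 6.30 to 8.10 in the SmoM2 arrays and 7.42 to 9.73 in the controls. Endothelial markers overlapped, with a mean of 4.38 to 4.70 in the loss arrays and 4.39 to 4.74 in the SmoM2 arrays. Leukocyte markers did so too (4.80 to 5.90 and 5.39 to 6.63). Schwann cell markers (7.01 to 7.71 and 7.30 to 7.79) and skeletal muscle markers (4.51 to 4.82 and 4.68 to 4.77) also overlapped. Suprabasal keratinocyte markers overlapped in mean (8.45 to 9.12 and 8.02 to 9.97). Their summed linear signal was higher in the loss arrays, 18128 to 18675, against 9774 to 15060 in the SmoM2 arrays. Of these Lor went the other way, with 7.24 and 6.88 in the loss arrays, against 8.61, 7.75 and 9.52 in the SmoM2 arrays. The part of any of these markers in the proteoglycan levels was not tested.

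Genes that work with these proteins were read from 5 lists. In β-catenin loss against SmoM2 at 4 wk, 13 collagens were tested that these proteoglycans bind or that share fibrils with such collagens. All 13 had negative differences, with a median of -1.23 against -0.09 for all genes. Of the 13, 1 passed the test, where 2.23% of all genes did. This was Col5a1, a chain of the collagen that starts fibrils, with a mean of 6.40 in the loss arrays and 8.35 in the SmoM2 arrays (-1.95 ± 0.34, adjusted p = 0.0223). Col14a1, whose product sits on fibrils and binds decorin, averaged 6.72 in the loss arrays and 11.11 in the SmoM2 arrays (-4.39 ± 1.12) and missed the threshold at an adjusted p of 0.0645. With the replicate number as a block it passed (-4.52, adjusted p = 0.0456), although the numbers do not pair the loss arrays with the SmoM2 arrays.

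Of 20 tested enzymes that build the linker and the chondroitin or dermatan sulfate chains, 2 passed the test, both lower. Of all genes 2.23% passed. The list median was -0.24, and 7 of the 20 differences were positive. Chst11, which sulfates chondroitin, averaged 5.64 in the loss arrays and 8.50 in the SmoM2 arrays (-2.86 ± 0.52, adjusted p = 0.0261). Csgalnact1, which starts a chondroitin chain on the linker, averaged 5.57 in the loss arrays and 7.58 in the SmoM2 arrays (-2.01 ± 0.40, adjusted p = 0.0346). Dse and Dsel, which act on dermatan sulfate, differed by 0.07 and -0.30, and neither passed. Of 7 tested keratan sulfate enzymes none passed in either direction, with a median of 0.03.

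Among 16 tested growth factors, receptors and matrix proteins that decorin or biglycan bind, 2 passed, both lower, where 2.23% of all genes did. The list median was -0.69, and 2 of the 16 differences were positive. Tgfb2, a TGF-beta ligand, averaged 6.07 in the loss arrays and 10.54 in the SmoM2 arrays (-4.47 ± 0.67, adjusted p = 0.0122), the largest difference in any of these lists. Fn1, the matrix protein fibronectin, averaged 5.42 in the loss arrays and 7.63 in the SmoM2 arrays (-2.21 ± 0.39, adjusted p = 0.0235). Egfr, a receptor that decorin restrains, averaged 8.28 in the loss arrays and 10.00 in the SmoM2 arrays, at an adjusted p of 0.053. Without loss replicate 1 all 5 genes that passed in these lists missed the threshold, Tgfb2 at an adjusted p of 0.154, Fn1 at 0.205, Col5a1 at 0.24, Chst11 at 0.257 and Csgalnact1 at 0.267. Without loss replicate 2 Fn1 (0.0583) and Csgalnact1 (0.0824) missed it, and without SmoM2 replicate 1 of 4 wk Chst11 (0.0555) and Csgalnact1 (0.0589) did, the last also without replicate 2 (0.0642). Other leucine-rich proteoglycan genes, such as Podn, 4 of which were tested of 11 listed, had no call and a median of -0.22.

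**Figure D4:**
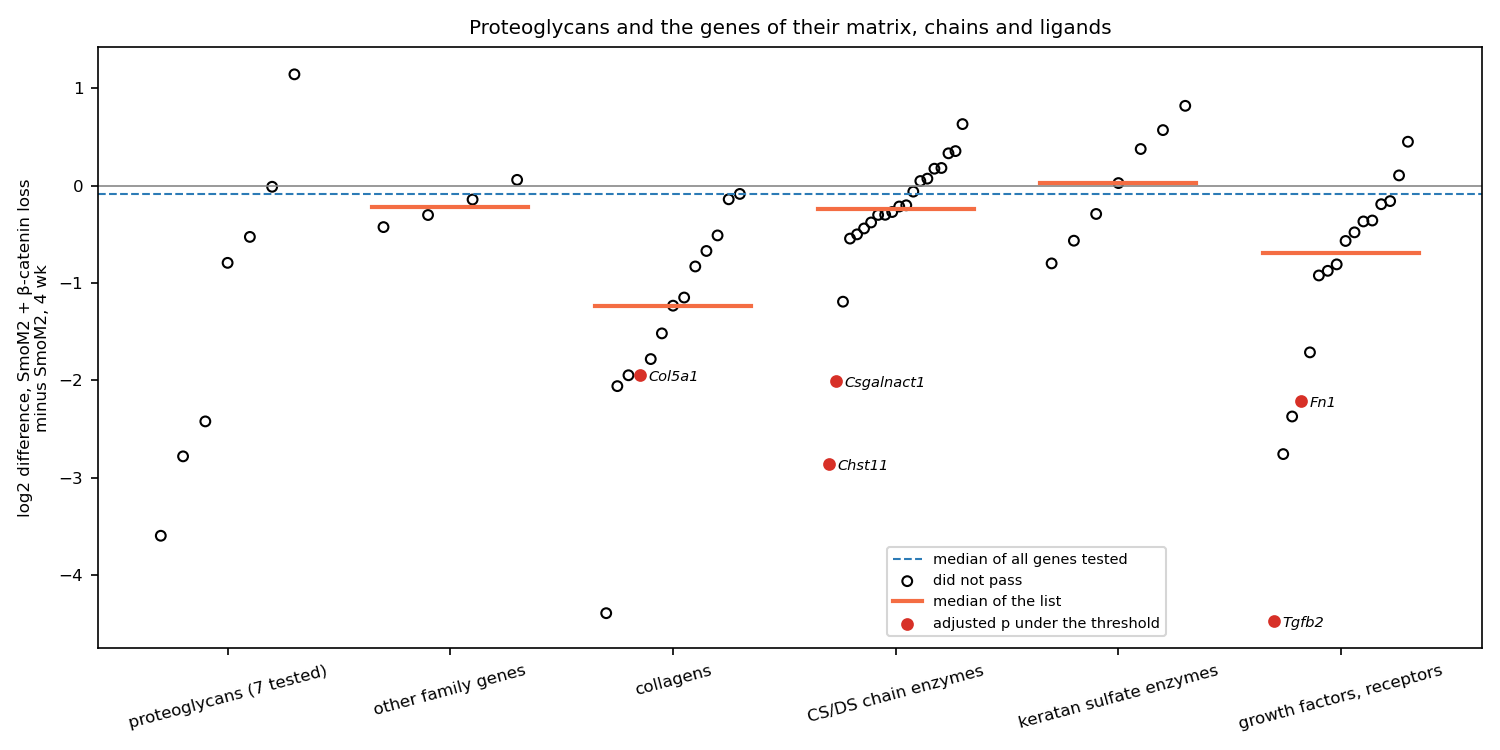
Difference of mean log2 signal, β-catenin loss minus SmoM2 alone at 4 wk (vertical axis), for each tested gene of the proteoglycans and the 5 lists (points), with the medians of the 5 lists (orange bars) and the median of all genes tested (dashed line, -0.09). Filled points had an adjusted p under 0.05: Tgfb2, Chst11, Fn1, Csgalnact1 and Col5a1, all negative, and none of the 7 proteoglycans.

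In SmoM2 against control at 4 wk, where the list genes are given as a description since the contrast chose Dcn and Ogn, Col14a1 averaged 11.11 with SmoM2 and 5.74 in the control. Col5a1 averaged 8.35 with SmoM2 and 6.80 in the control, and Chst11 averaged 8.50 with SmoM2 and 5.38 in the control. The collagens had a median difference of 1.18, against -0.05 for all genes, and the chondroitin enzymes one of 0.04. Chst11 was also high at 10 wk, at 8.42. Between SmoM2 stages and between the loss group and the control, no gene of the 5 lists passed.

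Between stages of SmoM2 the differences hold no control array, although the standard errors come from all IFE groups, controls included, and the arrays are those whose values chose Dcn and Ogn. At 4 wk against 1 wk none of the 7 passed (background 0%, and 4.82% of all genes at an unadjusted p under 0.05, where 0 of 7 passed). Bgn had 11.32, 11.13 and 11.07 at 4 wk, against 9.48, 10.76 and 9.75 at 1 wk, with no overlap (1.18 ± 0.69, adjusted p = 0.998). Dcn differed by -0.81 ± 0.61 and Ogn by -1.41 ± 0.82, with overlapping arrays.

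At 10 wk against 4 wk none passed either (background 0%), and 1 of 7, Aspn, had an unadjusted p under 0.05, where 6.25% of all genes did. Its difference was 3.09 ± 1.40 (adjusted p = 0.794), with 1 array of 4 wk above both arrays of 10 wk. Without that array, replicate 2, the difference was 4.99 at an adjusted p of 0.037. Set against 1 wk, a contrast added after the values were seen, Aspn had 10.23 and 10.63 at 10 wk, against 4.11, 6.85 and 4.16 at 1 wk (5.39 ± 1.40, adjusted p = 0.529), with no overlap; none of the 7 passed there, where 0.021% of all genes did, and 1 of 7 had an unadjusted p under 0.05, where 5.96% did. Bgn differed by -1.37 ± 0.77 (0.825) and Dcn by 0.01 between 10 wk and 4 wk.

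The bulge has 1 array a group and therefore no test. Lum had 5.80 in the SmoM2 bulge, against 4.18 in the bulge control. Aspn had 5.32 in the SmoM2 bulge and 3.97 in the bulge control, and Ogn had 4.89 in the SmoM2 bulge and 3.75 in the bulge control. These 3 of 7 differed by at least 2-fold (differences of 1.62, 1.34 and 1.13), where 6.94% of all genes did. Ogn was below the dim level on both arrays. Lum passed the filter partly through the SmoM2 bulge array itself, so this count is a description and supports nothing. Dcn differed by 0.02 and Bgn by -0.81. Of the fibroblast markers, Col1a2 and Col3a1 had 8.63 and 7.26 in the SmoM2 bulge, against 6.69 and 4.33 in the bulge control. Thy1 went the other way, with 6.68 in the SmoM2 bulge and 9.21 in the bulge control. The whole list had a summed linear signal of 1021 in the SmoM2 bulge and 1088 in the bulge control. Its mean log2 signal was 5.79 in the SmoM2 bulge and 5.59 in the bulge control. The part of these markers in the Lum value was not tested.

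The array labelled bulge control, set against the IFE controls, had Bgn at 12.22, against 7.16 to 8.73 in the IFE controls (difference 4.09). Ogn had 3.75 on that array, against 7.61 to 7.96 in the IFE controls (-3.98), and Aspn had 3.97 there, against 7.19 to 7.42 in the IFE controls (-3.33). These 3 of 7 were past 2-fold, where 12.9% of all genes were, and Dcn differed by 0.85. With SmoM2 at 4 wk, the bulge differed from the IFE by -1.72 in Dcn, -2.03 in Aspn and 1.03 in Lum. These 3 of 7 were past 2-fold, where 5.82% of all genes were, and Bgn differed by 0.24. Lum passed the filter only through arrays of these groups, so this count is a description and supports nothing. Bgn thus read high on both bulge arrays, and in the IFE above all control arrays from 1 wk of SmoM2 on.

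The genes whose levels were most like each of these 4 proteoglycans over the 14 IFE arrays are given as a description, since the arrays share groups, tissue and sort and the groups themselves drive such correlations. For Dcn they were Cd24a, a surface glycoprotein (Pearson r = 0.911), Ly75 (0.901), Zdhhc2 (0.890), the collagen lysyl hydroxylase Plod2 (0.888) and the transcription factor Mycn (0.877). For Bgn they were Col14a1 (0.954), Adcy7 (0.914), Arl15 (0.913), the transmembrane proteoglycan Cspg4 (0.912) and Cpxm1 (0.910). Aspn was most like Col4a4 (0.928), Egflam (0.918), Cpne8 (0.916), Kcnq3 (0.914) and Col4a3 (0.913), of which Col4a3 and Col4a4 encode chains of basement membrane collagen. Ogn was most like Dmpk (0.962), Selenbp1 (0.960), Elmod3 (0.959), Cysltr1 (0.958) and the ligand Wnt4 (0.951). Among the proteoglycans, Dcn and Bgn had a correlation of 0.78, Prelp ran against both (-0.82 and -0.77), and Aspn ran with neither Dcn (0.015) nor Ogn (-0.22).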

How the data were processed

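The authors deposited 1 table of log2 signals for 16 Affymetrix mouse arrays and 45101 probe sets, per the labels; R 2.14.0 is named in the submitters' processing notes, and the normalization method is not given in the sources used here. Of the probe sets, 34958 were annotated to 1 gene, 932 to several and 9211 to none, and 34754 matched RefSeq (GRCm38.p6) by identifier. A gene was read by its probe set of highest mean over all arrays, so a fold is that of 1 probe set, and was tested if it exceeded the array's 40th percentile on at least 2 arrays, which left 14286 of 18194 genes. The 14 IFE arrays were fitted with group means in limma 3.58.1 (R 4.3.3) and p-values were adjusted over all genes tested by Benjamini-Hochberg. The scripts were tested on simulated data.

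The 8 genes and all lists were chosen with earlier results of these data known. Named genes were the 8 proteoglycans, list genes past the threshold with a few of stated role, and the 5 genes of highest Pearson correlation with Dcn and Ogn; the same for Aspn and Bgn, and the contrast of 10 wk with 1 wk, were added after seeing the data. Genes such as Col14a1, Egfr, Dse, Dsel and Podn were named after their values were seen. Same-numbered arrays of control, 1 wk and 4 wk deviated together (correlations of 0.34 to 0.70 over genes in all 9 pairs), so the titles' numbers pair these groups; the loss and 10 wk arrays did not deviate with them. Alternatives covered the reading of probe sets, the filter, scaling, the groups fitted, the replicate block, array weights, a Y-linked covariate and leaving out each array. Precision is limited by how few arrays each group has. The bulge arrays entered no test.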

Additional observations from a re-analysis of the deposited data

Results flagged for a closer look

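In 4 genes a difference at 3 d or in the bulge had the opposite sign to the SmoM2 difference of an IFE group. The first rests on 1 SmoM2 array and the second on 1 array a group. The array labelled bulge control had Gli1 at 9.89, against 9.96 in the SmoM2 bulge, so the bulge difference cannot be read as an effect of SmoM2. Whether the differences of opposite sign differ from each other was not tested. None of the genes passed at 3 d. Ogn differed from its control by -3.80 at 4 wk and -3.94 at 10 wk in the IFE, but by 0.42 at 3 d. In the bulge SmoM2 array Ogn differed by 1.13 from the bulge control, against -3.80 in the IFE at 4 wk, with both bulge values at background. Bgn differed by 3.04 in the IFE at 4 wk and by -0.81 in the bulge, where the control array was already the highest of all. Aspn differed by 3.13 at 10 wk and by -3.38 at 3 d, with the same sign at 1 wk as at 3 d (-2.26). Prelp differed by -0.72 in the IFE at 4 wk and by 0.07, close to 0, in the bulge. No group had enough arrays to test 1 array against the rest of its group.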

How the results depend on the processing

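With 1 to 3 arrays a group and the spread shared between groups, counts of proteoglycan genes passing moved with the setting, and signals near background (Lum, Omd, Prelp, Fmod) carry little range. Of 1044 differences of single proteoglycan genes recomputed under alternatives, 997 kept their side of the threshold, 29 lost a call, 18 gained one and 0 called values changed sign. In β-catenin loss against SmoM2, 0 genes passed as reported. There 1 passed with the mean of all probe sets of a gene (Prelp, 1.40, adjusted p = 0.0478), 1 with every probe set tested on its own (Bgn, -3.01, 0.0459), 1 with the replicate block by title number (Prelp) and 1 with the replicate block by experiment number and the 3 d array left out (Prelp, 1.20, 0.0346). Leaving out single arrays gave 0 to 3 there, 3 without loss replicate 2. Fitting only the groups compared gave 2 in loss against control (0 as reported) and 3 in 10 wk against control (0 as reported). Array weights gave 3 in 10 wk against control, 1 in 10 wk against 1 wk (Aspn, 5.73, 0.00426; 0 as reported) and 1 in 4 wk against control (3 as reported). In that last contrast 0 passed with no filter on dim genes, 1 with the Y-linked covariate, and 0 to 1 with single arrays left out; Dcn also missed the threshold with the replicate block. Leaving out single arrays gave 0 to 1 in 10 wk against 4 wk (Aspn without replicate 2 of 4 wk). It gave 0 to 1 in 1 wk against control, where Ogn (-3.69) passed without replicate 3 of 1 wk, the array with Ogn at 7.93. Counts in SmoM2 against control are no test, since those contrasts chose the genes, and nothing is read from them. The replicate block by title number changed no other count of proteoglycan genes by over 1.5 times. Over all genes it gave 1347 calls in loss against SmoM2 (318 as reported), 169 in loss against control (53), 873 in 4 wk against control (463) and 163 in 10 wk against control (100), and it added Col14a1 in the first and Tgfb2 (0.0352) and Csgalnact1 (0.0134) in the third. Over the 12 alternatives besides leaving out single arrays, calls over all genes ranged from 17 to 1347, 11 to 169, 320 to 873 and 59 to 1545 in these contrasts. Some of these 12 fitted fewer arrays, such as the fit of only the groups compared. With single arrays left out the calls ranged from 2 to 247, 1 to 54, 13 to 410 and 0 to 45. Between stages all counts over genes were 0 to 24, except 10 wk against 1 wk, at 0 to 400 (3 as reported). The causes were not tested. Among list genes in loss against SmoM2, Tgfb2 passed in 16 of 17 alternatives, Col5a1 and Fn1 in 14, Chst11 in 13 and Csgalnact1 in 10.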
